A study of Mus musculus with 2 samples.

Results

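Neurons with transcripts of both LIM-homeodomain genes Lhx6 and Lhx8 and little or no Zic1 made up 269 of the 4001 cells of a medial ganglionic eminence (MGE) library. The MGE is the ventral swelling of the embryonic forebrain that produces cortical and striatal interneurons, pallidal neurons and the cholinergic neurons of the basal forebrain. The cells were selected on 12 genes. Tubb3 of at least 10, Hes5 under 3 and Top2a plus Mki67 under 3 set the group called postmitotic neurons here. These limits admit low values of progenitor and cell cycle genes: 151 of the 269 cells had Hes5, Top2a and Mki67 all at 0. The other criteria were Lhx6 of at least 1, Lhx8 of at least 3, Zic1 under 3, Gbx1, Gbx2, Isl1 and Sst at 0, and Calb1 under 5. All numbers are deposited values per cell. The selected cells are called members here. They were 6.72% of all cells (exact 95% interval 5.97 to 7.54), 11.2% of the 2407 postmitotic neurons (9.94 to 12.5) and 20.8% of the 1292 postmitotic neurons with Lhx6 of at least 1 and Lhx8 of at least 3 (18.6 to 23.1). These Clopper-Pearson intervals cover the counting of cells only.

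MGE cells of E11.5 embryos of the CD-1 strain, from suspensions labelled for the enhancers hs192 or hs799, were pooled with MULTI-seq, a method that tags each cell suspension with a lipid-anchored barcode before a shared 10x Chromium run. Of 6 sample barcodes, 4 marked GFP-gated suspensions and 2 marked ungated ones. No map from cells to these barcodes was used, so the gate, the enhancer and the embryo of a cell are not known, and the gate can set every share given here. There was 1 RNA library and no replicate: the spread between animals is unknown, no test was run, and each standard deviation (SD) is a spread over cells of that library.

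LIM-homeodomain proteins are transcription factors that work with cofactors of the Ldb family, while LIM-only (Lmo) proteins compete for those cofactors. In the MGE, Nkx2-1 acts upstream of Lhx6 and Lhx8. Lhx6 is required for the specification and migration of MGE interneurons, and Lhx8, with Isl1 and Gbx genes, for forebrain cholinergic neurons. In young neurons of the MGE mantle both genes are known to be expressed together and to promote Shh expression.

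Both marker genes were above 0 in every member, as the rule requires. Lhx6 (GRCm38 2:36081953-36105408, minus strand) ranged from 1 to 16 per member, with a median of 4. Lhx8 (3:154306294-154330659, minus strand) ranged from 3 to 29, with a median of 8. A level is a gene's summed value per 10000 summed values of a group of cells. The level of Lhx6 was 3.77 (SD 2.01 over 269 cells) and that of Lhx8 was 7.76 (SD 4.44). Both genes helped to choose the cells, so these values are a description. Across the 269 members the values of Lhx6 and Lhx8 had a Spearman rho of -0.07: a member with more Lhx8 did not tend to have more Lhx6. Values just inside and just outside the limits of Lhx8, Zic1, Calb1 and Lhx6 differed to varying degrees. The 55 members with Lhx8 of 3 or 4 had Nr2f1 at 3.47 and the 91 cells just outside, with Lhx8 of 1 or 2, at 4.99. The 26 members with Zic1 of 2 had Sox2 at 1.52, and the 34 cells just outside, with Zic1 of 3 or 4, at 0.903. The 32 members with Calb1 of 3 or 4 had Epha5 at 3.12 and the 25 cells with 5 or 6 at 4.41. The 22 members with Lhx6 of 1 had Nr2f1 at 1.78, and the 15 cells with none at 3.22. Npy was at 0.129 just inside and 0.488 just outside the Zic1 limit, and at 1.09 and 2.32 at that of Calb1. No cell met the other criteria with Tubb3 of 5 to 9.

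Most neurons with both genes were left out by the other criteria. Of the 1292, 42.0% had Zic1 of at least 3, 33.1% had Gbx1, 20.7% had Isl1, 18.2% had Gbx2, 13.8% had Calb1 of at least 5 and 8.13% had Sst. To see what each criterion separates, the members were set beside 3 groups of cells that differ from them in 1 criterion each: the Zic1-high counterpart (Zic1 of at least 3, 160 cells), the Lhx8-zero counterpart (Lhx8 at 0, 88 cells) and the Calb1-high counterpart (Calb1 of at least 5, 73 cells). The 4th group was the 2138 other postmitotic neurons, which also hold the counterparts and the Isl1, Gbx and Sst neurons. The corner where Lhx8 was 0 and Zic1 at least 3 held 2 cells. Cell totals were alike, with medians of 11917 in members, 11732 in Zic1-high, 11929 in Lhx8-zero and 12140 in Calb1-high cells, as were genes per cell, at 3768, 3634, 3752 and 3877. The totals were treated as depth-corrected before deposit, so raw depth per cell is unknown. Cells that nearly skip the value 1, as rounding after such a correction would give, were 15% of Zic1-high cells. They were 7.06% of members, 4.55% of Lhx8-zero cells and 6.85% of Calb1-high cells. The part of this in the shares of cells with a value was not tested.

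The members shared GABAergic genes and the MGE factor Nkx2-1, which the rule did not ask for. Gad2, which makes GABA, had a value in 100% of the 269 cells, at a level of 7.44, and Slc32a1, the vesicular GABA transporter, in 86.2%, at 2.18. Dlx5, a homeobox gene of forebrain GABAergic neurons, had a value in 97.8% of members, and Dlx6os1, which is antisense to Dlx6, had a level of 10.2. Nkx2-1, the MGE regional factor, ranged from 0 to 21 with a median of 3 and was above 0 in 85.9% of members (81.1 to 89.8). Sox6, needed for the placement and maturation of MGE interneurons, was above 0 in 82.5% at a level of 3.24. Bcl11b, a zinc-finger factor of the striatal and lateral ganglionic eminence list, was above 0 in 97.0% at 6.28. Each of these levels lay within 2-fold of that in every counterpart. Most of these genes do not mark the MGE. In the 110 neurons with Isl1 and Ebf1 of at least 3, Gad2 was in 100%, Bcl11b in 96.4% and Dlx5 in 92.7%, but Nkx2-1 in 11.8%. None of the 6 Dlx-locus genes and none of the 5 GABA genes tested lay past 2-fold against any of the 4 groups. A gene was tested if at least 10% of cells of either group had a value, and was counted if its levels differed by at least 2-fold.

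Genes of the cholinergic machinery were at or near 0. Chat and Slc18a3, which make and load acetylcholine, were not analysed here. Ache had a value in 1.12% of members, Slc5a7, the choline transporter, in 0.743% and Ngfr in 1.12%, while Chrm2 was at 0 in every member. Among the Zic genes that the rule did not use, Zic2 and Zic5 were at 0 in all members, and Zic4 was in 3.35%. Markers of microglia, endothelium and glutamatergic neurons were also low. The 1 measured microglial marker, Aif1, was at 0, the 3 endothelial markers summed to a level of 0.0214 and the 12 glutamatergic markers to 0.0825, with 6 of these at 0. Other lists were not low in members. Ventricular zone markers summed to 13.5, with Vim in 92.6% of members. Striatal and lateral ganglionic eminence markers summed to 9.16, with Bcl11b in 97.0%. Caudal ganglionic eminence markers summed to 3.24, with Nr2f1 in 61.0%. The embryonic haemoglobin Hbb-y was in 74.4% of members and in 70.5% to 73.6% of each comparison group. The part of these transcripts in the results was not tested.

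A noncoding gene, AI606473 (3:154330821-154334254, plus strand), starts beside Lhx8 and points away from it. It had a value in 35.7% of members (29.96 to 41.7) and in 5.68% of Lhx8-zero cells (1.87 to 12.8). By RefSeq (GRCm38.p6) the 2 starts are 261 bases apart, while the outermost Lhx8 end in GENCODE M21, whose coordinates are given above, lies 162 bases from AI606473. By GENCODE, 99 of the 150 bases printed for Lhx8, and 0 of the 40 shared ones, are inside the Lhx8 gene. The 150 bases before each RefSeq start are printed to show that the 2 upstream stretches run into each other: the capitals mark the 40 bases (3:154330671-154330710) that both windows hold, read on opposite strands.
Lhx8, 3:154330561-154330710, minus strand: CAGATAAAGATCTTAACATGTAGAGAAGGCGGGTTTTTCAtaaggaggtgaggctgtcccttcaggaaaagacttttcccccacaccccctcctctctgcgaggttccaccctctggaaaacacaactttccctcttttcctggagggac
AI606473, 3:154330671-154330820, plus strand: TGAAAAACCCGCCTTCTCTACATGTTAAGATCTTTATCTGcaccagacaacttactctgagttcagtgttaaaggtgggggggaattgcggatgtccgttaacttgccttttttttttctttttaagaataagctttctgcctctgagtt
The letters TAATTA, a core bound by many homeodomain proteins, are the same on both strands and occurred in neither window, while 2.73% of 32851 RefSeq windows of the same length held them. The deposited values measure transcripts only, so nothing here measures binding or activity of these stretches.

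Against the Zic1-high counterpart, the members had higher levels of several interneuron maturation factors, Sox2 and Epha5, and lower levels of Zic genes, Six3 and Kitl. Of 8530 genes tested, 1.48% were at least 2-fold higher in members and 1.21% at least 2-fold lower. In the list of interneuron maturation factors, 5 of 25 tested genes were higher and 0 lower, and the list's median log2 ratio was 0.23 beside 0.00 over all genes tested. Among them were Nr2f2, Maf, Nr2f1 and Satb1. Nr2f1 and Nr2f2 are also in the caudal ganglionic eminence list, of which 2 of 3 tested genes were higher and 0 lower (median log2 ratio 1.84). Nr2f1, an orphan nuclear receptor also known as COUP-TFI, ranged from 0 to 21 in members with a median of 1 and from 0 to 8 in Zic1-high cells with a median of 0. Its levels were 1.93 (SD 2.87) and 0.540 (SD 0.973). In the 1059 progenitors (Hes5 of at least 3, Tubb3 under 10) Nr2f1 was higher than in both, at 4.49. Its relative Nr2f2, a factor of caudal ganglionic eminence interneurons, had a value in 22.3% of members (17.5 to 27.8) and 4.37% of Zic1-high cells (1.78 to 8.81). The ranges overlapped for both genes: the groups differed in how many cells had high values, and many members had none.

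The transcription factor Sox2, which is highest in progenitors, ranged from 0 to 33 in members with a median of 2, and from 0 to 8 with a median of 1 in Zic1-high cells. Its levels were 3.20 (SD 3.64) and 0.723 (SD 0.980). The other ventricular zone genes did not share this difference. Of 8 tested, Sox2 was the 1 higher in members and 0 were lower, with a list median log2 ratio of -0.02 beside 0.00 over all genes. Of 12 subventricular genes, 2 were higher in members, among them the zinc-finger gene Insm1 (0.419 against 0.162), and 0 were lower. Of 20 genes for migration receptors and signals, 2 were higher, the ephrin receptors Epha5 and Epha3, and 3 were lower, the netrin receptor Dcc, the Kit ligand Kitl and Robo3. Epha5 ranged from 0 to 33 in members (level 2.68, SD 4.52) and from 0 to 9 in Zic1-high cells (0.624, SD 1.26). Kitl was at 0.562 against 1.23 and Dcc at 0.596 against 1.195. Dcc was barely past 2-fold (log2 ratio -1.004) and was short of it under 4 of 6 alternatives (-0.90 to -0.98). Kitl was short of it with members limited to Zic1 at 0 (-0.93), and Epha3 with Lhx8 of at least 5 (0.97). The peptide gene Npy had a value in 26.0% of members and 11.2% of Zic1-high cells, with single cells reaching 56 and 26. Outside the lists, the orphan receptor gene Nr2e1 stood first among the genes higher in members (0.578 against 0.0786), followed by Smoc1 and Igsf8.

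Genes with less transcript in members than in Zic1-high cells included Zic4, at 0.0275 against 1.07. Zic4 (9:91362413-91389348, plus strand) overlaps Zic1 (9:91358058-91365810, minus strand), on which the groups were chosen. The sources used here do not say whether strand was used in counting, and without it reads of the overlap cannot be told apart. The same holds for Dlx6os1 and Dlx6, and for Sox2 and its overlapping transcript Sox2ot. Zic2, which had no value in members, was also lower. Six3, a homeobox gene of the rostral forebrain, ranged from 0 to 9 in members and from 0 to 18 in Zic1-high cells, at levels of 0.443 (SD 0.932) and 1.53 (SD 2.46). The long noncoding RNA Rmst was at 0.361 against 1.22, a log2 ratio of -1.76 that was -2.83 without the 25 members of subgroup 3, described below. Th, an enzyme of catecholamine synthesis, was at 0.333 against 0.713. Its log2 ratio of -1.10 was -0.99 with Lhx8 of at least 5 and -0.9997 without subgroup 3, both short of 2-fold.

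Against the Lhx8-zero counterpart, several of the same genes lay on the other side. Of 8661 genes tested, 1.87% were at least 2-fold higher in members and 1.82% at least 2-fold lower. All 3 tested genes of the caudal ganglionic eminence list were lower in members: Nr2f1 (1.93 against 6.43), Nr2f2 (0.584 against 1.74) and the homeobox gene Prox1 (0.611 against 1.29). In the list of interneuron maturation factors, which shares genes with it, 3 of 25 were lower and 1 higher (median log2 ratio -0.24). Nr2f1 ranged from 0 to 24 in Lhx8-zero cells with a median of 7, and was above 0 in 96.6% of them (90.4 to 99.3) beside 61.0% of members (54.9 to 66.8). Prox1 was under 2-fold with members limited to Calb1 at 0 (log2 ratio -0.95). Epha5, at 2.68 against 5.41, was above 0 in 54.3% of members and 80.7% of Lhx8-zero cells. Its log2 ratio of -1.01 was -0.76 in members with Zic1 at 0 and -0.99 without cells that skip the value 1. The LIM-only gene Lmo1 was at 1.34 against 3.28, the 1 of 8 tested LIM factors and cofactors past 2-fold. Of 12 subventricular genes, 3 were lower in members, among them the Notch ligand Dll1 (0.168 against 0.450) and Gadd45g (0.559 against 1.39), and 0 were higher, with a list median log2 ratio of -0.42 beside -0.03 over all genes. Of 8 ventricular zone genes, Notch1 was lower (0.144 against 0.441) and 0 were higher.

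AI606473 was among the genes with more transcript in members than in Lhx8-zero cells (0.510, SD 0.902, against 0.0469, SD 0.190), as was Shh, the secreted signal that patterns the ventral forebrain. Shh ranged from 0 to 8 in members and was above 0 in 37.2% of them (31.4 to 43.2). In Lhx8-zero cells it ranged from 0 to 4 and was above 0 in 10.2% (4.78 to 18.5). Levels were 0.620 (SD 1.08) and 0.141 (SD 0.485). Of the 6 tested genes of the Shh pathway list it was the 1 past 2-fold. Ptch1, the Shh receptor and itself a pathway target, was at 0.278 against 0.469. The POU-domain genes Pou3f2 (2.51 against 0.647) and Pou3f1 (2.12 against 0.910), and Mpped2 (5.37 against 1.98), a predicted phosphoesterase gene, were also higher in members. For Pou3f1 the log2 ratio of 1.22 was 0.99 with Zic1 at 0 and 0.92 without subgroup 3, both short of 2-fold. Cntnap2, which encodes an adhesion protein, was at 0.330 against 0.112.

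**Figure D1:**
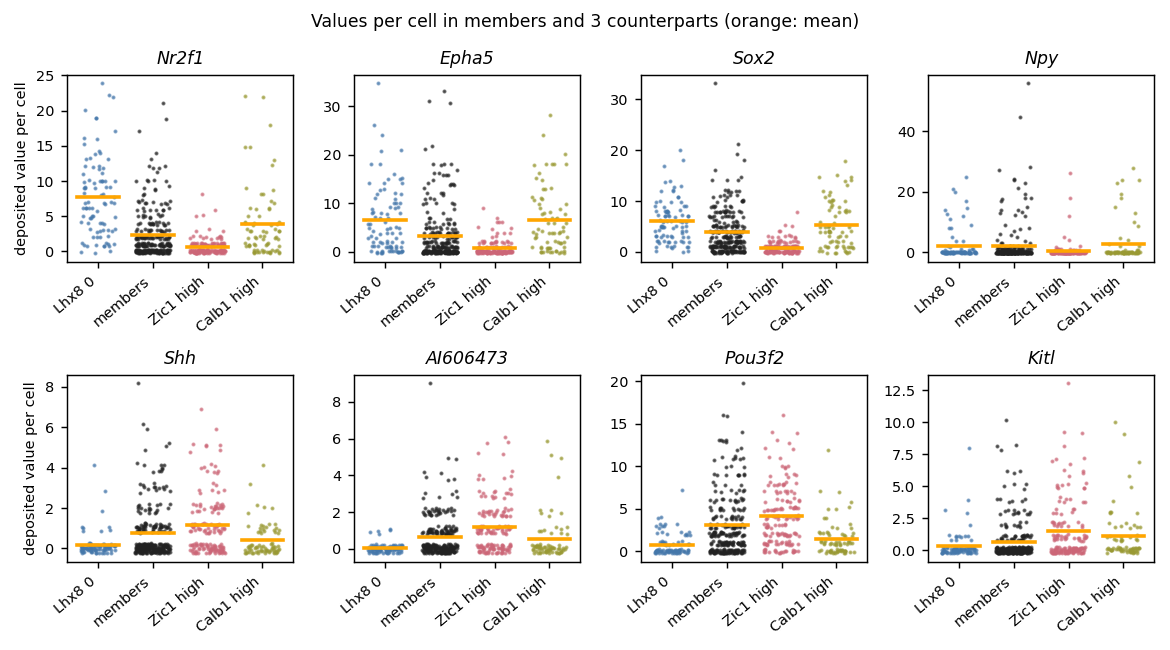
Deposited value per cell (vertical axis) of 8 genes in Lhx8-zero cells, members, Zic1-high cells and Calb1-high cells; each point is 1 cell, moved slightly at random, and orange lines are means. Nr2f1, Epha5 and Sox2 are lower from the first group to the third, Shh, AI606473 and Pou3f2 are higher, and the ranges overlap throughout.

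Members thus lay between these 2 counterparts for many genes. Of 181 genes at least 2-fold apart between Lhx8-zero and Zic1-high cells, with a value in at least 25% of cells of either, the members' level was between the 2 in 166 (91.7%). Choosing genes by the extremes leaves most other groups in between, and by the same count the other neurons were between for 86.7% and Calb1-high cells for 71.3%. In order from Lhx8-zero through members to Zic1-high, Nr2f2 was at 1.74, 0.584 and 0.0419, Maf, a bZIP factor of MGE interneurons, at 0.469, 0.275 and 0.0629, and Sox2 at 5.03, 3.20 and 0.723. In the other direction AI606473 was at 0.0469, 0.510 and 0.985, Shh at 0.141, 0.620 and 0.975, and Pou3f2 at 0.647, 2.51 and 3.48. Lhx6 showed no such order, at 2.92, 3.77 and 3.51. Lhx8 itself was at 0, 7.76 and 12.1, so the 2 counterparts are ordered by Lhx8 as well as by Zic1, although Zic1 and not Lhx8 defines the Zic1-high cells.

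Within the members, the same genes were graded with the amount of Lhx8. These bins were set after values had been seen. In members with Lhx8 of 3 or 4 (55 cells), 5 or 6 (47), 7 or 8 (35), 9 to 11 (54), 12 to 15 (37) and 16 or more (41), the level of Nr2f1 was 3.47, 2.19, 2.72, 1.34, 0.963 and 0.557. For Nr2f1 the cells outside the rule continued the series, with 4.99 at Lhx8 of 1 or 2 (91 cells) and 6.43 at 0. Sox2 went from 4.81 at Lhx8 of 3 or 4 to 1.31 at 16 or more, and Epha5 from 5.51 to 0.875. AI606473 went the other way, from 0.0742 to 1.29, as did Shh (0.312 to 1.31), Pou3f2 (1.23 to 4.10), Pou3f1 (1.34 to 3.32) and Mpped2 (3.52 to 7.14). Outside the rule, at Lhx8 of 1 or 2 and of 0, Epha5 was flat at 5.47 and 5.41. Sox2 (5.67 and 5.03), AI606473 (0.018 and 0.0469) and Pou3f1 (0.685 and 0.910) were not in order there. Shh (0.216 and 0.141), Pou3f2 (0.784 and 0.647) and Mpped2 (3.31 and 1.98) fell further. Steps between neighbouring bins were uneven: Npy was at 3.85 in the bin of 7 or 8 and 0.916 in the next. Lhx6 stayed between 3.25 and 4.11 and Nkx2-1 between 2.78 and 3.97 in all 6 bins. Stmn2, a gene of growing axons, stayed between 18.9 and 21.9.

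**Figure D2:**
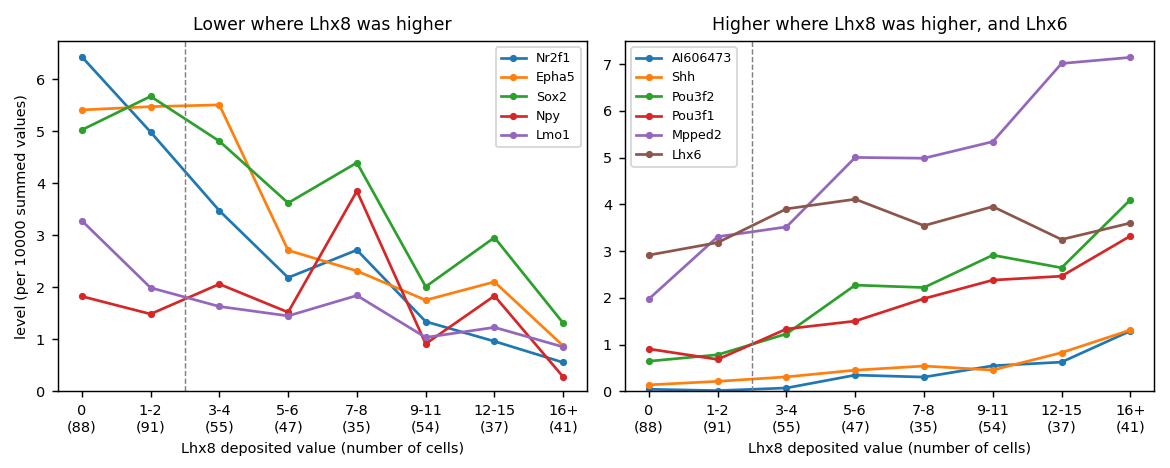
Level per 10000 summed values (vertical axis) of named genes in cells grouped by Lhx8 value (horizontal axis, number of cells in brackets); cells right of the dashed line are members, and those left of it meet every criterion except Lhx8. Nr2f1 is at 6.43 where Lhx8 is 0 and at 0.557 where Lhx8 is 16 or more, while Lhx6 lies between 2.92 and 4.11 throughout.

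Across the 269 members, Spearman's rho with Lhx8 was -0.39 for Nr2f1, -0.37 for Sox2, -0.27 for Epha5, 0.29 for Shh and 0.43 for AI606473. Nr2f1 had a rho of 0.44 with Nr2f2 and 0.38 with Epha5. All points share 1 library, and cells share a depth correction made before deposit. Residual Zic1 moved with Lhx8: the 88 members with Zic1 of 1 or 2 had Lhx8 at 9.55 and the 181 with Zic1 of 0 at 6.90. Among the 181 with Zic1 of 0, Nr2f1 was at 3.06 in the 106 cells with Lhx8 of 8 or less and 1.21 in the 75 with more, and AI606473 at 0.209 and 0.831. Among the 88 with Zic1 of 1 or 2, Nr2f1 was at 2.11 (31 cells) and 0.696 (57 cells). Nr2f1 was thus lower with more Lhx8 both at a Zic1 value of 0 and at 1 or 2, and Nr2f2, Epha5 and Sox2 were as well. The part of Zic1 in the gradation was not tested. Not all graded genes did this. In the 88 members with Zic1 of 1 or 2, Npy was at 0.586 with Lhx8 of 8 or less and 0.884 with more, Pou3f2 at 3.28 and 3.36, and Shh at 0.639 and 0.739. With Zic1 at 0 the same genes were at 2.84 and 1.04 (Npy), 1.42 and 3.10 (Pou3f2) and 0.356 and 0.897 (Shh).

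Against the Calb1-high counterpart, the members had lower levels of several interneuron maturation factors and higher levels of a few subventricular zone and cell cycle genes. Of 8595 genes tested, 2.01% were at least 2-fold higher in members and 1.84% at least 2-fold lower. Of 25 interneuron maturation factors, 3 were lower, among them Npas1 (0.153 against 0.672) and Maf (0.275 against 0.571), and 1 was higher, Dach1 (0.119 against 0.0448). Maf ranged from 0 to 10 in members and was above 0 in 19.0% (14.4 to 24.2). In Calb1-high cells it ranged from 0 to 3 and was above 0 in 38.4% (27.2 to 50.5). Epha5 was at 2.68 against 5.39, the 1 of 18 migration genes past 2-fold. With members limited to Zic1 at 0 its log2 ratio went from -1.01 to -0.76, short of 2-fold, and that of Maf from -1.05 to -0.87. Of 12 subventricular genes, 3 were higher, Ccnd2 (2.53 against 0.817), a cyclin of intermediate progenitors, Insm1 (0.419 against 0.168) and Btg2 (0.174 against 0.0784). Of 11 cell cycle genes, 2 were higher, Ube2c (0.657 against 0.291) and Birc5 (0.174 against 0.0672). With Zic1 at 0 the log2 ratios of Ube2c (0.87) and Birc5 (0.63) were short of 2-fold. Of 10 immediate early and dissociation stress genes, 3 were lower in members, Fos, Junb and Egr1, and 1 was higher, Btg2, with a list median log2 ratio of -0.23 beside -0.02 over all genes. Egr1 was at 0.159 against 0.504. With Zic1 at 0, Fos (-0.71) and Junb (-0.90) were short of 2-fold. Zfhx3 (1.78 against 0.526) and Pou3f1 (2.12 against 0.817) were higher. The Zfhx3 difference rested on 25 members described below: without them the log2 ratio was 0.18 in place of 1.76, and that of the related Zfhx4 0.24 in place of 1.57.

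Against all other postmitotic neurons, most of the distance was on the low side. Of 8561 genes tested, 0.14% were at least 2-fold higher in members and 1.41% at least 2-fold lower. In the striatal and lateral ganglionic eminence list 6 of 10 were lower and 0 higher, with a median log2 ratio of -1.19 beside -0.03 over all genes. They were Ebf1, Meis2, Six3, Zfp521, Pbx3 and Foxp2, of which Meis2 was at 0.144 against 1.56. Ebf1 and Meis2 are known from Isl1 neurons, which the rule leaves out. Of 26 pan-neuronal genes, 6 were lower, among them Gap43 (1.93 against 4.55), Ina (3.71 against 7.85) and Nefl (0.0947 against 0.579), a neurofilament gene. These low levels were not particular to the members. In Zic1-high, Lhx8-zero and Calb1-high cells Gap43 was at 1.77, 2.185 and 2.13, Nefl at 0.0891, 0.0844 and 0.123, and Ina at 3.22, 3.22 and 5.80. In the 110 neurons with Isl1 and Ebf1 of at least 3 they were at 17.45 (Gap43), 3.21 (Nefl) and 19.31 (Ina). Of 22 migration genes, 6 were lower and 0 higher, including Cntnap2 (0.330 against 0.805) and Nrp2 (0.355 against 0.723). Pnoc, a peptide precursor, was at 0.144 against 0.665, a log2 ratio of -2.21 that was -3.38 without subgroup 3. It was also low in Zic1-high (0.210), Lhx8-zero (0.178) and Calb1-high cells (0.313). Foxp2, Pbx3, Ina and Nrp2 were each short of 2-fold in at least 1 alternative set of members. Among the few genes higher in members, the heat shock gene Hspa1a ranged from 0 to 12 and was above 0 in 55.4% of members (49.2 to 61.4) and 27.6% of other neurons (25.7 to 29.5), at levels of 1.34 and 0.542. It was as high in Calb1-high cells (1.43). Tiam2, an exchange factor for the small GTPase Rac, was at 0.318 against 0.141. Ube2c and Birc5 were the 2 of 12 cell cycle genes higher in members, and with Zic1 at 0 their log2 ratios were 0.74 and 0.37, short of 2-fold.

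**Figure D3:**
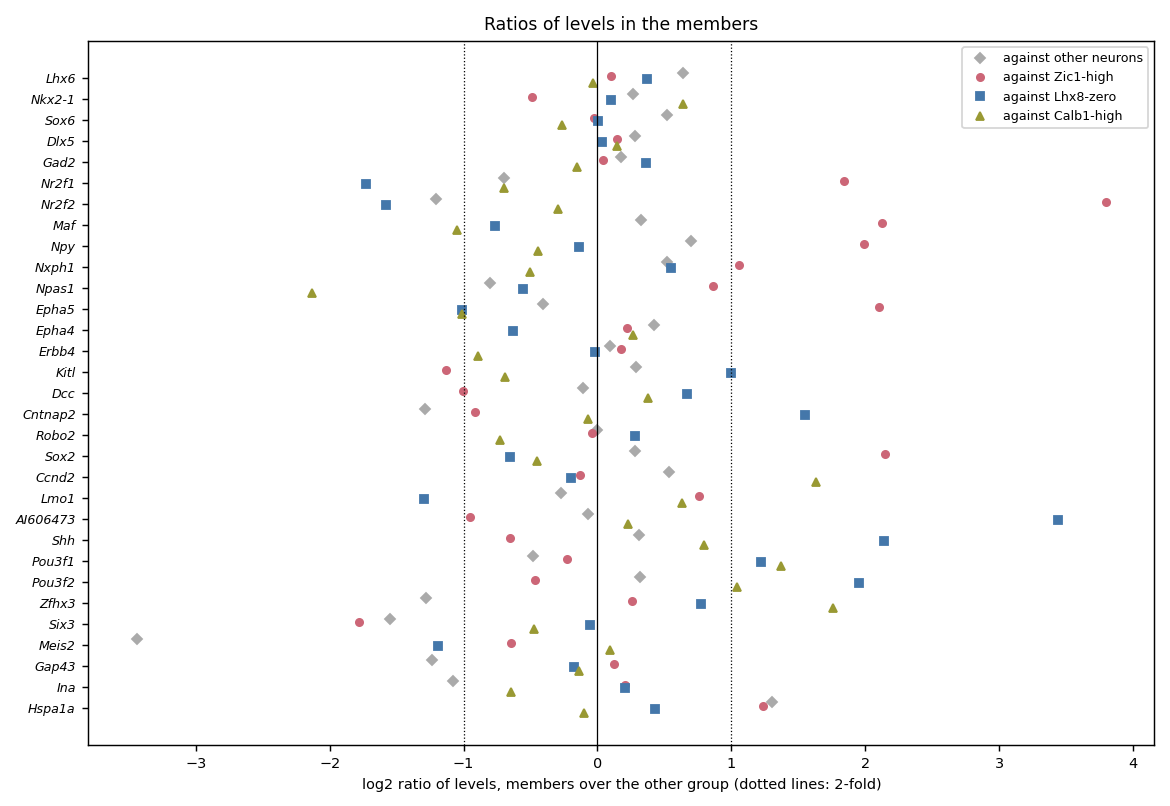
Log2 ratio of levels (horizontal axis) of named genes in the 269 members over each of 4 comparison groups; dotted lines mark 2-fold. Lhx6, Sox6, Dlx5 and Gad2 lie within 2-fold of every group, whereas Nr2f1, Nr2f2 and Epha5 lie right of 0 against Zic1-high cells and left of it against Lhx8-zero cells.

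The members were not a separate set in the transcriptome at large. With the 12 rule genes left out, 30.7% of the 15 nearest neurons of a member were members, 2.74 times their 11.2% share of neurons. A member had between 0 and 11 members among its 15 neighbours, with a median of 5. In 19 members there were 0, and in 40 they were the majority. Neurons with Gbx1 or Gbx2 made up 23.2% of the members' neighbours (27.2% of neurons), Isl1 neurons without Gbx genes 10.7% (28.1%), Zic1-high cells 6.05% (6.65%) and Lhx8-zero cells 6.02% (3.66%). By share of neighbours, the counterparts bordered on the members more than on each other, while the members also outnumber each counterpart. Around Lhx8-zero cells 22.6% of neighbours were members and 1.21% Zic1-high cells. Around Zic1-high cells 13.0% were members and 1.04% Lhx8-zero cells. Around Calb1-high cells 18.4% were members and 15.2% Sst neurons, which were 5.40% of neurons. Members were 2.02 times their share of neurons around Lhx8-zero cells, 1.64 times around Calb1-high cells and only 1.16 times around Zic1-high cells. Calb1-high cells were 1.30 times their share around Lhx8-zero cells, and Lhx8-zero cells 1.40 times theirs around Calb1-high cells.

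**Figure D4:**
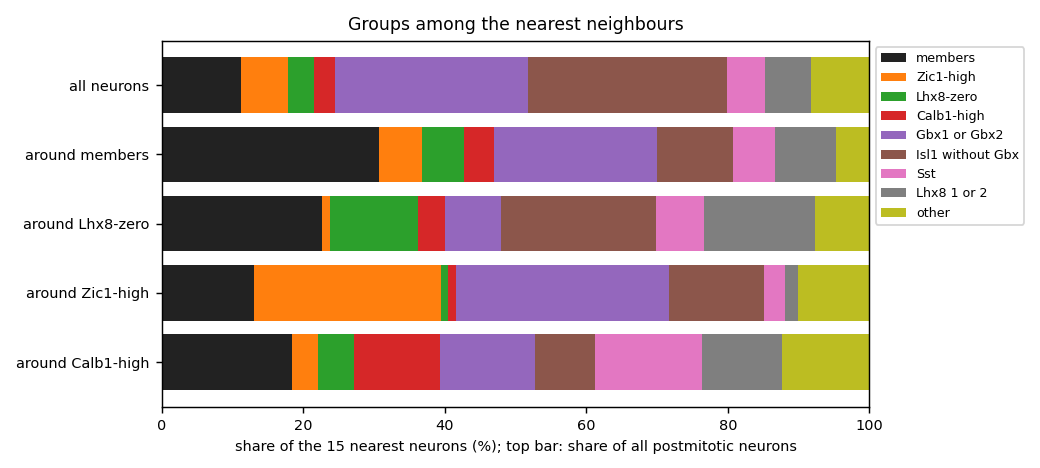
Share (horizontal axis, %) of each group of neurons among the 15 nearest neighbours of members, Lhx8-zero, Zic1-high and Calb1-high cells, with the top bar giving each group's share of all 2407 neurons. Members (black) are 30.7% of the neighbours of members and 11.2% of neurons.

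Clustering of the 269 members without the rule genes gave 4 subgroups, whose leading genes are given as descriptions. Subgroup 1 (95 cells, 35.3%) was led by Ezr, Phgdh, Btbd17, Cenpa and Rgs16. It had Ccnd2 at 5.14, Ube2c at 1.43 and Dll3, a Notch ligand of newborn neurons, at 1.29, beside 1.72, 0.277 and 0.246 in subgroup 4. Tubb3 was lowest in subgroup 1, at 27.4. The limits called postmitotic thus admitted cells with transcripts of the cell cycle gene Ube2c. Subgroup 4 (106 cells, 39.4%) was led by Arid5b, Tmsb15b2, Oma1, Robo2 and Kitl and had the highest Gad2, 9.02. Subgroup 2 (43 cells, 15.99%) was led by Zfp703, Unc5d, Tmem59l, Klf2 and Dab1. Unc5d is a netrin receptor and Dab1 the adaptor of the Reelin pathway. This subgroup had Hspa1a at 2.91 and Npy at 2.63. Hspa1a was therefore spread unevenly among members, at 0.752 in subgroup 1 and 0.101 in subgroup 3.

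Subgroup 3 (25 cells, 9.29%) stood apart. It was led by Gfra1, a GDNF receptor, Gabra2, a GABA-A receptor subunit, Zfhx3, Vstm2l and Mdga2. Zfhx3 had a value in 100% of these cells at a level of 13.6, and in 32.8% of the other members at 0.595. Gabra2 was at 1.41 against 0.0202. Pou3f1 was highest here, at 6.06. Lhx6 (3.62) and Lhx8 (8.41) were close to their levels in all members, so neither marker tells these cells from the rest.

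**Figure D5:**
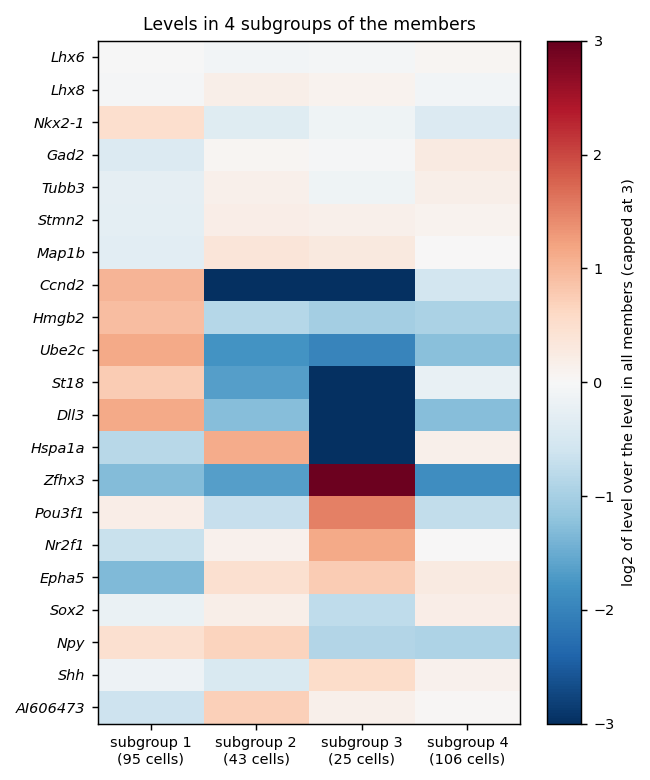
Log2 of the level of named genes in each of 4 subgroups of the members over their level in all 269 members (colour, capped at 3 in both directions). Subgroup 1 is high in Ccnd2, Ube2c and Dll3, subgroup 2 in Hspa1a and subgroup 3 in Zfhx3, while Lhx6 and Lhx8 are even.

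The gradation with Lhx8 ran within every subgroup. Nr2f1 in members with Lhx8 of 8 or less and above 8 was at 1.87 and 0.487 in subgroup 1 (50 and 45 cells), 3.31 and 1.18 in subgroup 2 (19 and 24 cells), 5.46 and 2.90 in subgroup 3 (13 and 12 cells) and 2.96 and 0.891 in subgroup 4 (55 and 51 cells). Nr2f2, Epha5, Sox2 and Npy were also lower, and Shh, AI606473, Pou3f2 and Mpped2 higher, above 8 in each of the 4. In subgroup 4, Sox2 was at 5.20 and 2.10, and Npy at 1.52 and 0.191. Bins of 12 to 24 cells rest on few cells, and no spread between animals is known for any of these values.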

How the data were processed

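The file analysed gives, for 18088 genes in 4001 cells, integers of at most 1245. These deposited values were treated as a score that the authors made from UMI counts, since cell totals lay between 10475 and 14196 and 214 cells nearly skip the value 1, which rounding after a depth correction would give. Per the submitters' processing notes, bcl2fastq, Cell Ranger 3.0.2 and GRCm38 were used. Sample barcodes of cells were not analysed here. The members and lists were chosen with earlier results of these data known.

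Levels were summed values per 10000 of a group. A gene counted as past the threshold at 2-fold if at least 10% of cells of either group had a value, leaving out the 12 rule genes. Named genes were members of 32 lists and, outside them, the 8 with the largest and the 8 with the smallest ratio per comparison among genes in at least 25% of cells of the higher group, without ribosomal and unnamed genes, plus 5 leading genes per subgroup. Genes in the Lhx8 bins were chosen after their values were seen. Neighbours used 2000 variable genes, 30 components and 15 neighbours (scanpy 1.11.5), and subgroups used Leiden clustering at a resolution of 0.5 (igraph 0.11.9) on 15 components. Scrublet at an expected 5% called 6 cells (0.150%), 0 of them members, too few to show that it worked, and no cell was removed. There were 0 duplicate cell barcodes. Coordinates are from GENCODE M21, in which 18071 identifiers were found, and windows before starts from RefSeq. Ratios were checked on simulated data.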

Additional observations from a re-analysis of the deposited data

How the results depend on the processing

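The number of members, 269, followed the limits: 308 with Lhx8 of at least 2, 214 with at least 5, 181 with Zic1 at 0, 303 with Zic1 under 5, 171 with Calb1 at 0, 307 with Calb1 under 10, 151 with Hes5, Top2a and Mki67 all at 0, and 369 with limits applied to values scaled to 10000 per cell. Genes past 2-fold in both directions numbered 133 (other neurons), 229 (Zic1-high), 320 (Lhx8-zero) and 331 (Calb1-high). In the same order they were 514, 844, 1137 and 1237 past 1.5-fold, 30, 49, 68 and 64 past 3-fold, 44, 60, 65 and 61 with a value in at least 25% of cells, and 318, 540, 750 and 906 with at least 5%. The counts stayed within 1.5 times without rescaling, without cells that skip the value 1 and without the 5% of neurons with most genes. Among neighbours of members, the share of members was 28.5% to 32.3% over 5 alternatives. The share of genes with members between the 2 counterparts was 97.1% at 3-fold and 86.4% with a value in at least 10% of cells, both chosen after seeing the data. None of 139 named ratios turned its sign under 6 alternatives. Most of these genes were named for a large ratio and the alternatives reuse the same cells, so a change of sign was unlikely. Of 131 past 2-fold, 32 were short of it in at least 1 alternative, and 12 values moved by over 1.5-fold: 9 without subgroup 3 (among them Rmst, Pnoc, and Zfhx3, Zfhx4 and Hsd11b2 in 2 comparisons each) and 3 with Zic1 at 0 (Robo3, and Birc5 in 2 comparisons). No paired analysis was possible because there was 1 RNA library.

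No replicate library was available to leave out. Values are depth-corrected, so the precision that sequencing depth gives to each cell is unknown, and a 0 in a cell does not show that the gene was off. With 73 to 160 cells in the counterparts, low genes rest on few cells.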

Other observations

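None of the 11 tested genes of hypoxia and glycolysis lay past 2-fold against any of the 4 groups. Of 11 tested ion channel genes, 2 were higher and 1 lower in members than in Zic1-high cells, with a median log2 ratio of 0.57 beside 0.00 over all genes. The sodium channel subunit Scn3b was at 0.159 in members and 0.0576 in Zic1-high cells, and the potassium channel gene Kcnk2 at 0.245 and 0.529. For Kcnk2 the log2 ratio of -1.11 was -0.91 with members limited to Zic1 at 0, short of 2-fold. Against the other neurons and Calb1-high cells, 0 of 13 channel genes were past 2-fold. Of 7 tested receptor genes, 2 were higher in members than in Lhx8-zero cells and 0 lower, and 1 was lower than in Calb1-high cells. That gene was Gria4, an AMPA receptor subunit, at 0.223 in members and 0.548 in Calb1-high cells.

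Of the cell adhesion genes, 6 of 21 were lower in members than in other neurons and 0 higher, with a median log2 ratio of -0.58 beside -0.03 over all genes. Against Zic1-high cells 3 of 19 were higher and 2 lower, against Lhx8-zero cells 2 of 16 were higher and 0 lower, and against Calb1-high cells 2 of 17 were higher and 2 lower. Lsamp was at 0.461 in members, 0.210 in Zic1-high cells and 0.178 in Lhx8-zero cells. Without subgroup 3 its log2 ratios were 0.58 and 0.81, short of 2-fold. The teneurin gene Tenm4 was at 0.0469 in Lhx8-zero cells, 0.183 in members and 0.367 in Zic1-high cells. Against Zic1-high cells its log2 ratio was barely past 2-fold (-1.001). It was short of 2-fold in several alternatives, down to -0.69 with members limited to Calb1 at 0. The protocadherin gene Pcdh7 was at 0.0275 in members and 0.202 in Calb1-high cells.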
